A study of Homo sapiens with 9 samples.

Results

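Transcripts of 10 immediate early genes were compared across 9 RNA-seq libraries of A549, an established human lung adenocarcinoma cell line. The genes were FOS, FOSB, FOSL1, JUN, JUNB, EGR1, KLF6, IER2, IER3 and DUSP1, taken by name from a table of 19257 genes. All 10 were present and all 10 passed the filter on low counts, among 12574 genes that did.

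Immediate early genes are transcribed within minutes of a growth factor, cytokine or stress signal, without new protein synthesis, because the factors that switch them on are already present and are activated by MAP kinases. Serum response factor with its ternary complex partners and CREB are the best known of these, and many of the transcripts carry AU-rich elements and decay quickly. The products include the Fos and Jun proteins, which pair through leucine zippers to form the transcription factor AP-1, zinc finger factors such as EGR1 and KLF6, and phosphatases such as DUSP1 that turn the MAP kinases off again. In lung adenocarcinoma cells with an active RAS pathway, as A549 has, FOSL1 is known as a stably expressed member of the Fos family.

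The libraries fell into 3 groups of 3. OGT_KO cells received a Lenti-CRISPR-V2 plasmid directed at OGT, the enzyme that attaches O-linked N-acetylglucosamine to intracellular proteins. TR11B_KO cells received one directed at TR11B, the protein database name of osteoprotegerin, a decoy receptor encoded by TNFRSF11B. NC cells received the empty plasmid, and their genotype label reads WT. All cells were kept in medium with serum, and no label describes starvation or stimulation before harvest. The levels are therefore read as those of cultures without added stimulation. Whether the cultures were growing at harvest was not tested. The tables name the columns of a knockout GTsg12 or TBsg1 plus a replicate number. The sources used here give neither guide sequences nor clone history, so the effect of a guide or clone and that of the knockout cannot be told apart. The samples are called biological replicates with no mention of separate cultures. The p-values therefore measure only how much these libraries vary, which may be technical.

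Library totals ranged from 38327508 to 42245970 counts. The TMM factor was 0.784 in TR11B_KO replicate 2 and 0.951 to 1.16 in the other 8 libraries, so this library stands apart, and results are given without it where that changed a call. OGT was at 21.1, 28.3 and 22.9 CPM (counts scaled to library size) in OGT_KO libraries, 17.0, 11.5 and 12.4 CPM in TR11B_KO libraries and 29.6, 26.9 and 24.7 CPM in NC libraries. Thus OGT mRNA did not pass the test in OGT_KO against NC (log2 fold change -0.17, adjusted p = 0.607) and fell in TR11B_KO (-0.99, adjusted p = 0.00393). TNFRSF11B had 1, 0 and 0 counts in OGT_KO, 3, 1 and 0 in TR11B_KO and 13, 15 and 3 in NC, too few to check that label. An edit need not lower an mRNA, and the groups below are those of the labels. Keratins KRT7, KRT8 and KRT18 were above 1 CPM in every library, whereas KRT19 (at most 0.484 CPM), EPCAM (at most 2 counts) and CDH1 (0 in all) were not, and of 6 alveolar type 2 markers only NAPSA and ABCA3 were in the table. Of 5 leukocyte markers only CD14 and CD68 were in the table. Their sum reached at most 4.21, 4.51 and 6.50 CPM in OGT_KO, TR11B_KO and NC libraries. PECAM1 of endothelium was at 0 in all. The endothelial sum, with VWF and CDH5, reached at most 0.0952, 0.00 and 0.485 CPM in the same order.

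At the level of the transcript, per length, the 10 genes spanned more than 3 orders of magnitude on the FPKM scale (fragments scaled to transcript length and library total). IER3, which encodes a stress-inducible regulator of cell survival, was the highest in every library at 301 to 349 FPKM. Its mean level was 326 ± 20.0 FPKM in OGT_KO, 324 ± 14.9 FPKM in TR11B_KO and 309 ± 10.1 FPKM in NC (SD, n = 3 each). Below it, FOSL1, JUNB and IER2 lay within one band. In TR11B_KO these stood at 75.9 ± 4.72, 74.8 ± 9.51 and 73.0 ± 7.09 FPKM, which did not differ beyond their spread, and in OGT_KO FOSL1 (65.6 ± 2.54 FPKM) and IER2 (66.7 ± 1.54 FPKM) did not either, both below JUNB at 86.7 ± 2.52 FPKM. In NC the order was FOSL1 at 75.2 ± 3.39, JUNB at 47.4 ± 2.34 and IER2 at 36.7 ± 2.74 FPKM, with no overlap.

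JUN and DUSP1 formed the next pair. Their FPKM levels were 16.1 ± 1.08 and 17.2 ± 1.51 in OGT_KO, which did not differ beyond their spread, 24.2 ± 5.21 and 14.0 ± 4.68 in TR11B_KO, and 25.3 ± 1.77 and 19.9 ± 0.697 in NC. KLF6, EGR1, FOSB and FOS took ranks 7, 8, 9 and 10 in every single library. FOS, the textbook immediate early gene, had 18, 16 and 10 counts in OGT_KO, 2, 5 and 6 counts in TR11B_KO and 8, 34 and 18 counts in NC, so that its level never exceeded 0.383 FPKM. EGR1 lay between 0.870 and 1.69 FPKM and FOSB between 0.0885 and 0.733 FPKM. FOS, FOSB and EGR1, often used as markers of acute induction, were therefore the lowest of the 10 in level. Over tested genes, the mean FPKM of FOS was at percentile 15.0, that of FOSB at 31.1 and that of EGR1 at 48.3. FOSL1 alone held 91.7% to 95.9% of the summed FPKM of FOS, FOSB, FOSL1 and FOSL2.

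**Figure D1:**
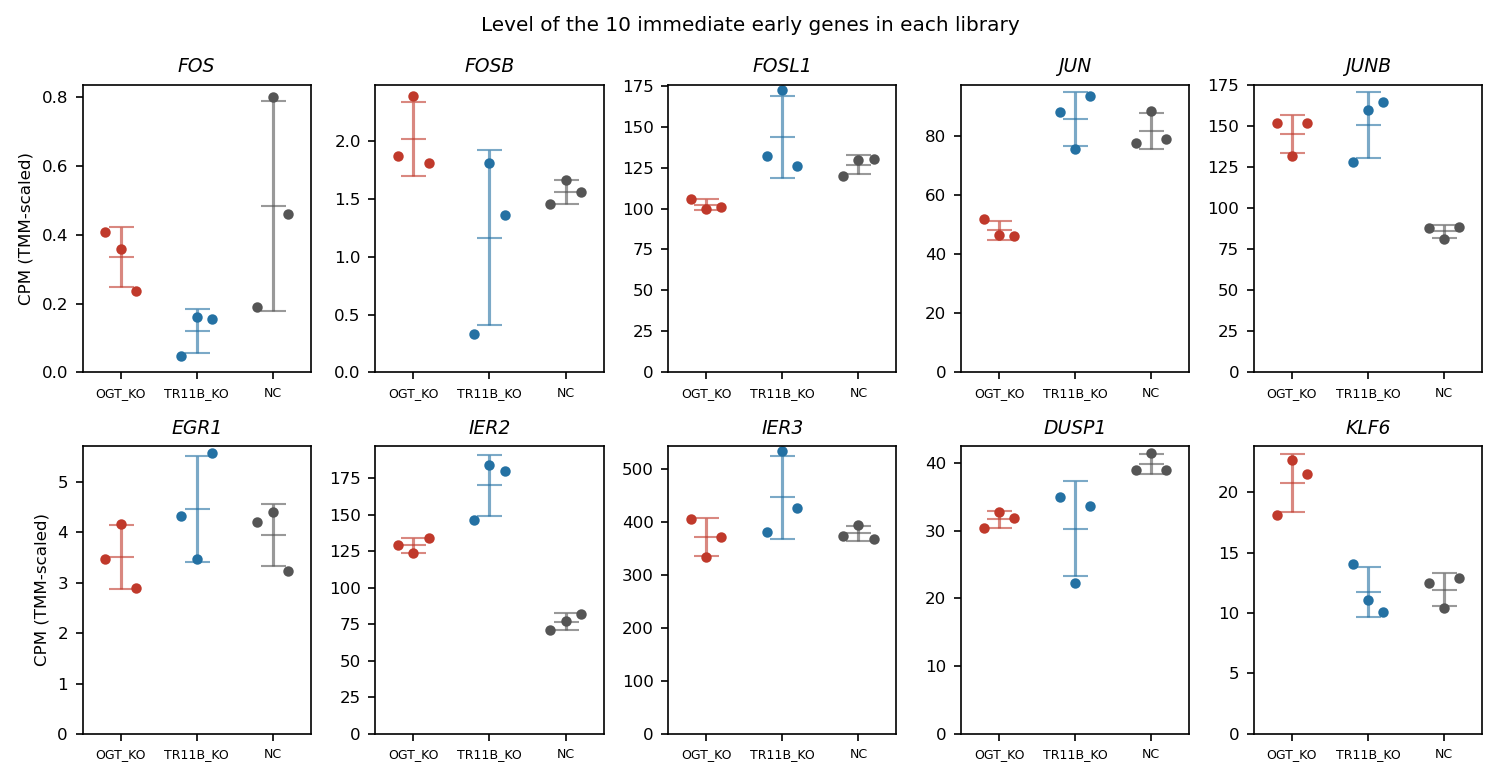
TMM-scaled CPM of each of the 10 immediate early genes, 1 panel per gene with its own axis from 0, with 1 point for each OGT_KO, TR11B_KO and NC library and bars for the mean and SD (n = 3). The JUNB and IER2 points of both knockouts lie above those of NC, the JUN points lie at 46.1 to 51.9 CPM in OGT_KO only, and FOS stays at or below 0.800 CPM.

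Promoter sequence is shown for the 4 genes called in OGT_KO and for EGR1, the one member with serum response elements in the window. Each line gives the 150 bases before the RefSeq start on GRCh38.p14, 5′ to 3′ on the gene's strand, and the capitals mark TGACG (the core of the cyclic AMP response element, written CGTCA when it lies on the opposite strand), TATAAA or a CArG box, the binding sequence of serum response factor.
JUNB, chr19:12791336-12791485, plus strand: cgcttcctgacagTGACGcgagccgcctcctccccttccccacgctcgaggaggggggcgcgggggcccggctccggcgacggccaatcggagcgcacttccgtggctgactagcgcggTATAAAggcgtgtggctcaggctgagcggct
IER2, chr19:13150261-13150410, plus strand: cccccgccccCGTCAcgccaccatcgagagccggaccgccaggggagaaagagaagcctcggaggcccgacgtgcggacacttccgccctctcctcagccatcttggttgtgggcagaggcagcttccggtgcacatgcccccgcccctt
JUN, chr1:58784048-58784197, minus strand: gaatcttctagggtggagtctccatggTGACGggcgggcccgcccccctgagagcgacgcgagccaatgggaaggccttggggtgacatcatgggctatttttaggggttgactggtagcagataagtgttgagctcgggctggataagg
KLF6, chr10:3785210-3785359, minus strand: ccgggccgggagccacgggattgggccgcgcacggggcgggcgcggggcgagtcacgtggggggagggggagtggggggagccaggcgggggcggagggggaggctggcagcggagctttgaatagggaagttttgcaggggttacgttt
EGR1, chr5:138465329-138465478, plus strand: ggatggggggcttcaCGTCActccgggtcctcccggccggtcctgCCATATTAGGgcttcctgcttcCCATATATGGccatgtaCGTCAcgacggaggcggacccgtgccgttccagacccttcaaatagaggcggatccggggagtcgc

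RefSeq windows were found for 8 of the 10 genes. FOSL1 and IER3 were not among them. Within 250 bases before the start, TGACG on either strand was present in 7 of the 8 (all but KLF6), against 21.2% of all 35116 windows. TATAAA was present in FOS, FOSB, JUNB and DUSP1, against 10.7% of windows, and the CArG box in EGR1, against 1.16%. The whole element TGACGTCA, which contains TGACG, was present in DUSP1 and in 1.65% of windows, and the AP-1 site TGANTCA in none of the 8 and in 6.57% of windows. JUNB and IER2, which moved alike, share TGACG among these sequences, and so does JUN, which did not move with them. Among the 14548 windows of tested genes the shares were 28.1% for TGACG, 5.55% for TATAAA, 1.02% for the CArG box and 4.15% for TGANTCA. Only exact matches to these patterns were counted, and variants of them were not searched for. The matches describe letters in a window and were not related to binding.

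In OGT_KO against NC, the Jun family members moved apart: JUNB rose and JUN fell, both by a similar amount on the log2 scale. IER2 and KLF6 rose as well, and none of the Fos genes passed the test. Thus 4 of the 10 genes were called at an adjusted p under 0.05, 3 higher and 1 lower, where 18.3% of all tested genes were called (8.26% higher, 10.1% lower). Their median log2 fold change was -0.10, beside 0.03 over all tested genes.

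JUNB, whose protein is a weaker transactivator than JUN and can hold JUN activity in check, was at 152, 132 and 152 CPM in OGT_KO libraries and at 87.8, 81.4 and 88.7 CPM in NC libraries. All OGT_KO libraries lay above all NC libraries, and the log2 fold change was 0.76 ± 0.16 (SE; adjusted p = 0.00589). JUN, the most strongly activating Jun protein and a substrate of JNK, was at 51.9, 46.5 and 46.1 CPM in OGT_KO against 77.6, 88.6 and 79.1 CPM in NC. Here the OGT_KO libraries lay below every NC library, with a log2 fold change of -0.76 ± 0.16 (adjusted p = 0.00544). IER2, a small nuclear protein induced by serum, was at 129, 124 and 134 CPM in OGT_KO against 70.9, 77.2 and 82.3 CPM in NC. It was higher in 3 of 3 libraries, by 0.75 ± 0.16 on the log2 scale (adjusted p = 0.00595). These 3 calls were kept under all 23 alternative settings, with adjusted p of at most 0.0422 for JUNB, 0.0489 for JUN and 0.0495 for IER2.

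KLF6, a Krüppel-like zinc finger factor, was at 18.1, 22.7 and 21.5 CPM in OGT_KO libraries and at 12.5, 10.4 and 12.9 CPM in NC libraries. The groups did not overlap, and the log2 fold change was 0.80 ± 0.21 (adjusted p = 0.0167). This call was lost on leaving out NC replicate 1 (0.83, adjusted p = 0.0648) or NC replicate 2 (0.71, adjusted p = 0.0956). Omission of OGT_KO replicate 2 (0.73, adjusted p = 0.0767) or OGT_KO replicate 3 (0.77, adjusted p = 0.0676) also ended it, while the size of the difference stayed near its value in all 9 libraries.

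Among the other 6 genes, FOSL1 and DUSP1 were lower in every OGT_KO library without passing the test. FOSL1 was at 106, 99.6 and 101 CPM in OGT_KO against 120.0, 129.9 and 130.5 CPM in NC (log2 fold change -0.31 ± 0.16, adjusted p = 0.207), and passed it without TR11B_KO replicate 2 (adjusted p = 0.0494), which changes the shared estimate of the spread and the genes tested. DUSP1, the phosphatase that inactivates p38 and JNK, was at 30.3, 32.8 and 31.8 CPM in OGT_KO against 38.9, 41.5 and 38.9 CPM in NC (-0.33 ± 0.19, adjusted p = 0.248). In the fit of only OGT_KO and NC both passed, FOSL1 with an adjusted p of 0.0206 and DUSP1 with 0.024, so that 6 of the 10 genes were called, as were 5095 of the 12195 genes tested there. FOSB, a Fos protein with its own activation domain, had 1.87, 2.39 and 1.81 CPM in OGT_KO, all above the 1.46, 1.67 and 1.56 CPM of NC, with a difference smaller than its error (0.37 ± 0.43, adjusted p = 0.587). In all, 7 of the 10 genes had non-overlapping groups, 4 above NC and 3 below, where 49.8% of tested genes did (24.2% above, 25.6% below). For FOS (-0.52 ± 0.63), EGR1 (-0.17 ± 0.25) and IER3 (-0.03 ± 0.17) the groups overlapped, with adjusted p of 0.606, 0.688 and 0.927.

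In TR11B_KO against NC, JUNB and IER2 were again higher, JUN and KLF6 were close to NC, and FOS was lower at very low counts. Of the 10 genes, 3 were called (2 higher, 1 lower), where 27.6% of tested genes were called (13.2% higher, 14.3% lower). The median log2 fold change of the 10 was 0.12, beside -0.01 over all tested genes. Both knockouts are set against the same NC libraries, so the values of JUNB and IER2 in both comparisons are not independent of each other.

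IER2 was at 146, 184 and 180.0 CPM in TR11B_KO libraries and at 70.9, 77.2 and 82.3 CPM in NC libraries. Every TR11B_KO library lay well above NC, and the log2 fold change of 1.15 ± 0.16 (adjusted p = 0.000372) was called under all 23 alternatives, at 0.76 to 1.30. JUNB was at 128, 160.0 and 165 CPM in TR11B_KO against 87.8, 81.4 and 88.7 CPM in NC. It too was higher in 3 of 3 libraries, by 0.81 ± 0.16 on the log2 scale (adjusted p = 0.00282). Unlike IER2, its call was lost when each library's trend of counts with GC content was removed (0.37, adjusted p = 0.0633), and more so when trends with GC and length were both removed (0.22, adjusted p = 0.239). JUNB has 64.9% GC and IER2 61.7%, where the median tested gene has 49.2%, and in OGT_KO the same removal left JUNB at 0.79. Whether GC-dependent recovery in TR11B_KO libraries takes part in the rise of JUNB was not tested. The JUNB call was also lost with the length offset and replicate block together, a setting without a GC term. It was kept with either of them alone.

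FOS had 0.0476, 0.161 and 0.154 CPM in TR11B_KO libraries and 0.191, 0.800 and 0.460 CPM in NC libraries. The groups did not overlap, and the log2 fold change was -2.01 ± 0.71 (adjusted p = 0.0492). With at most 6 counts in a TR11B_KO library the value is imprecise, and the call was lost under 15 of 21 alternatives that could test it. It was -1.43 without NC replicate 2, the library with 34 counts (adjusted p = 0.253), and -1.54 without TR11B_KO replicate 1, the one with 2 counts (adjusted p = 0.142). Leaving out NC replicate 3, TR11B_KO replicate 3 or any 1 of the OGT_KO libraries also ended the call, at log2 fold changes of -2.25 to -2.01 and adjusted p of 0.0655 to 0.0898. The level of FOS in these cultures was too low for a firm statement.

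None of the remaining 7 genes passed the test in TR11B_KO. JUN was at 88.1, 75.6 and 93.6 CPM in TR11B_KO, overlapping the 77.6, 88.6 and 79.1 CPM of NC (0.07 ± 0.16, adjusted p = 0.778). KLF6 was at 14.1, 11.1 and 10.1 CPM, overlapping the 12.5, 10.4 and 12.9 CPM of NC (-0.02 ± 0.21, adjusted p = 0.954). DUSP1 was lower in 3 of 3 libraries, at 35.0, 22.2 and 33.6 CPM in TR11B_KO against 38.9, 41.5 and 38.9 CPM in NC (-0.39 ± 0.19, adjusted p = 0.142). TR11B_KO replicate 2 had the lowest DUSP1 level of all libraries, and without it the log2 fold change was -0.18 (adjusted p = 0.377), while with the length offset DUSP1 passed (-0.60, adjusted p = 0.0433). The same library had the highest FOSL1 level, 172 CPM beside 132 and 126 CPM in the other TR11B_KO libraries, and the highest IER3 level, 533 CPM beside 380.5 and 426 CPM. FOSL1 (0.18 ± 0.16), IER3 (0.24 ± 0.17), EGR1 (0.18 ± 0.25) and FOSB (-0.44 ± 0.44) overlapped with NC, with adjusted p of 0.447, 0.319, 0.632 and 0.488. For 4 of the 10 genes the groups did not overlap, 2 above NC and 2 below, where 40.9% of tested genes had such groups (19% above, 21.9% below).

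**Figure D2:**
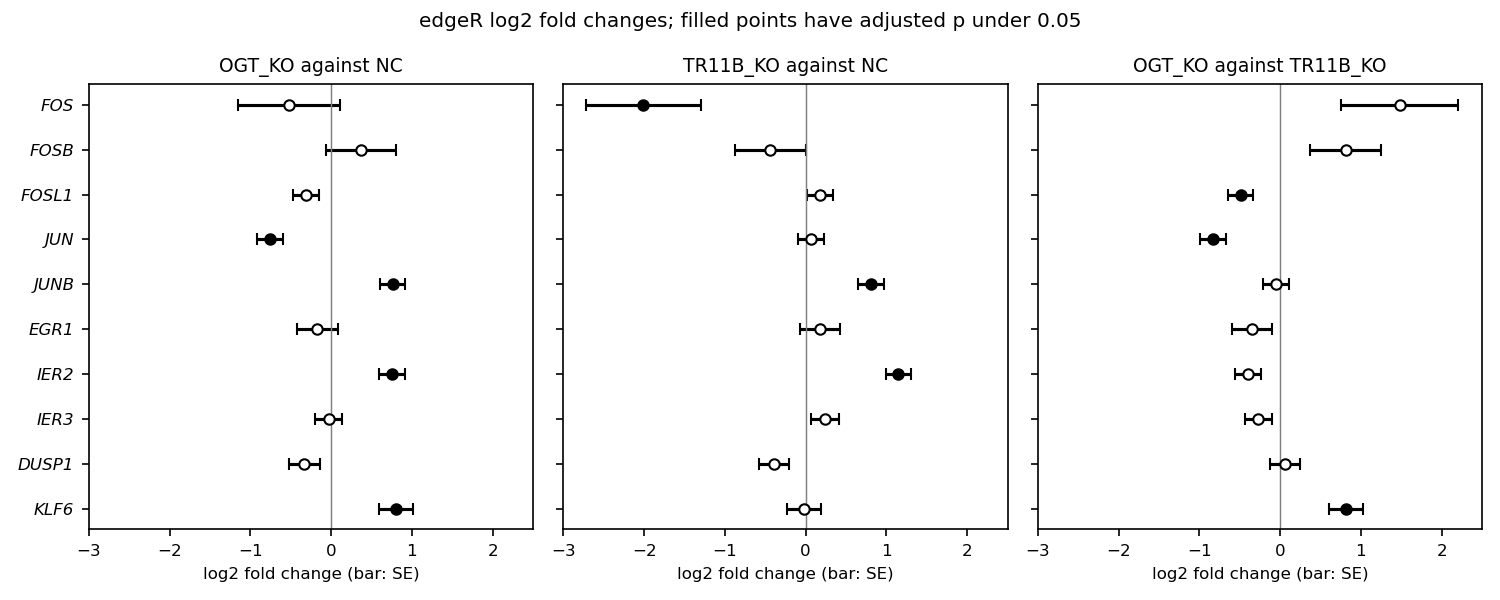
Log2 fold change with its SE (bars) for the 10 genes, filled where the adjusted p was under 0.05, in OGT_KO against NC, TR11B_KO against NC and OGT_KO against TR11B_KO, from the edgeR fit to all 9 libraries. JUNB and IER2 lie above 0 in both knockouts, JUN lies at -0.76 in OGT_KO and at 0.07 in TR11B_KO, and KLF6 lies at 0.80 and at -0.02.

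The direct comparison of OGT_KO with TR11B_KO tests which of these differences set the knockouts apart, without use of NC in the contrast. Here JUN and FOSL1 were lower and KLF6 higher in OGT_KO, 3 of 10 genes, where 33.2% of tested genes were called (16.7% higher, 16.5% lower). JUN was at 51.9, 46.5 and 46.1 CPM in OGT_KO against 88.1, 75.6 and 93.6 CPM in TR11B_KO, with no overlap and a log2 fold change of -0.83 ± 0.16 (adjusted p = 0.00164). Only the test on FPKM with no filter on low values missed the threshold for it, at -0.54 (adjusted p = 0.0511). KLF6 was at 18.1, 22.7 and 21.5 CPM in OGT_KO against 14.1, 11.1 and 10.1 CPM in TR11B_KO. That difference, 0.82 ± 0.21 (adjusted p = 0.00853), was called under all 23 alternatives, at 0.61 to 1.07.

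FOSL1 was at 106, 99.6 and 101 CPM in OGT_KO, below the 132, 172 and 126 CPM of TR11B_KO (-0.49 ± 0.16, adjusted p = 0.0347). Its call was less firm: it was kept under only 7 of 23 alternatives, and with length and GC trends removed the value was 0.02 (adjusted p = 0.912). Leaving out any single library of OGT_KO or NC also ended it, at adjusted p of 0.0528 to 0.115. JUNB did not pass the test (-0.05 ± 0.16, adjusted p = 0.829), although with both trends removed it was higher in OGT_KO by 0.56 (adjusted p = 0.00651). IER2 was lower in each OGT_KO library than in each TR11B_KO library and just missed the threshold (-0.40 ± 0.16, adjusted p = 0.0665). It passed without TR11B_KO replicate 1 or 2 and with DESeq2 (-0.48, adjusted p = 0.024), while with both trends removed its value was 0.10 (adjusted p = 0.548). The log2 fold changes of FOS (1.48 ± 0.72), FOSB (0.81 ± 0.44), EGR1 (-0.35 ± 0.25), IER3 (-0.27 ± 0.17) and DUSP1 (0.06 ± 0.19) did not pass either, with adjusted p of 0.128, 0.169, 0.313, 0.241 and 0.830. FOSB passed under 4 of 23 alternatives: without TR11B_KO replicate 2 (1.23, adjusted p = 0.0185), with the GC offset (1.12, adjusted p = 0.0394) and in the filtered limma tests on log2(FPKM + 1) and log2(FPKM + 0.1). With FOSB and IER2 added, 5 of the 10 genes were called without that library, as were 5307 of the 12827 genes then tested. Of the 10 genes, 6 had groups that did not overlap, 3 with OGT_KO above and 3 below, where 44.9% of tested genes did (24.6% above, 20.3% below).

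**Figure D3:**
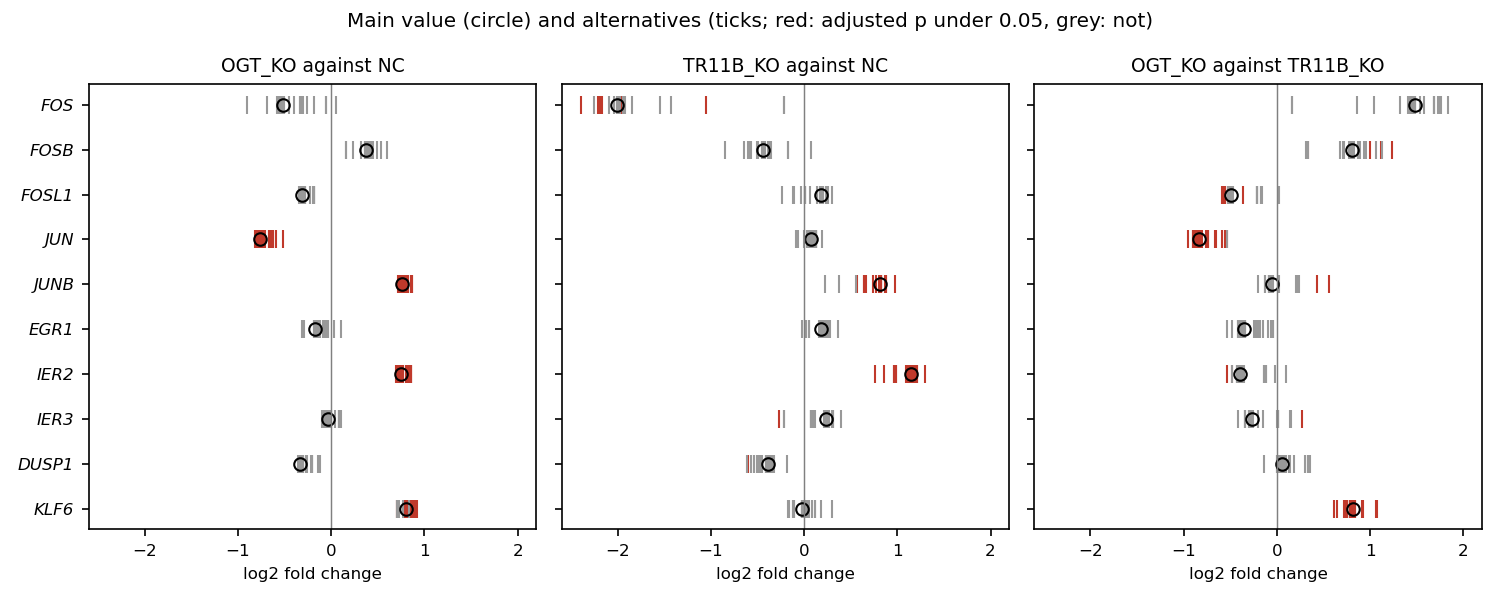
Log2 fold change of each gene in the 3 comparisons, with a circle for the value given above and a tick for each alternative setting, red where the adjusted p was under 0.05 and grey elsewhere. The ticks of IER2 in TR11B_KO against NC run from 0.76 to 1.30 and those of JUNB from 0.22 to 0.98, while those of JUN in OGT_KO against NC stay between -0.82 and -0.52.

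Set against each other per length, the Jun transcripts differed in composition between the 3 groups. The FPKM sum of JUN, JUNB and JUND, the third Jun gene, was 243, 235 and 234 in OGT_KO, 234, 215 and 248 in TR11B_KO, and 151, 143 and 147 in NC. JUN made up 6.99%, 7.04% and 6.38% of that sum in OGT_KO, 11.6%, 8.48% and 11.0% in TR11B_KO, and 15.9%, 19.2% and 16.7% in NC. The 3 groups did not overlap in this share, which was lowest in OGT_KO. The share of JUNB was 36.6% ± 0.922% in OGT_KO, 32.2% ± 2.34% in TR11B_KO and 32.3% ± 1.02% in NC (mean, SD). That of JUND was 56.6% ± 0.593%, 57.4% ± 2.76% and 50.5% ± 1.32% in the same order. Neither the shares nor the ratio below was corrected for trends with GC content. The FPKM ratio of JUNB to JUN was 5.22, 5.07 and 5.88 in OGT_KO, 2.59, 3.77 and 3.14 in TR11B_KO, and 2.01, 1.64 and 2.00 in NC. Each pair of groups was fully separated in this ratio, with an exact two-sided permutation p of 0.1, the smallest that 3 libraries against 3 can give. In OGT_KO against NC this followed from JUNB and JUN already lying apart in opposite directions. The ratio restates the levels of the same genes in the same libraries and adds no support of its own. Counts were higher for JUND itself in both knockouts, at 248, 224 and 239.6 CPM in OGT_KO, 263, 314 and 273 CPM in TR11B_KO and 149.7, 135 and 139.9 CPM in NC. Its log2 fold change was 0.74 ± 0.15 in OGT_KO (adjusted p = 0.00505), called under all 23 alternatives, and 1.00 ± 0.16 in TR11B_KO (adjusted p = 0.000655), where removal of the GC trend ended the call as it did for JUNB.

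**Figure D4:**
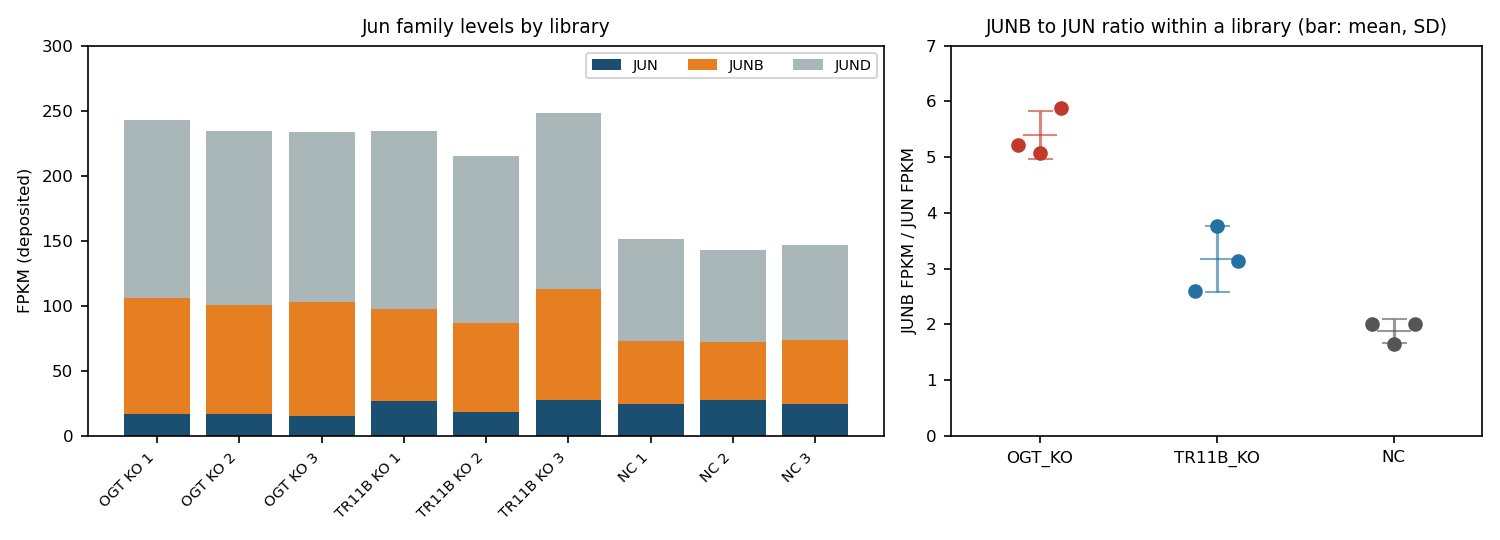
Left, FPKM of JUN, JUNB and JUND stacked for each library of OGT_KO, TR11B_KO and NC, and right, the FPKM ratio of JUNB to JUN with 1 point per library and bars for the mean and SD. The summed bars reach 234 to 243 in OGT_KO, 215 to 248 in TR11B_KO and 143 to 151 in NC, and the ratio runs from 5.07 to 5.88, 2.59 to 3.77 and 1.64 to 2.01.

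The genes also differed in how steady they were between libraries of one group. IER2, JUN, JUNB, FOSL1 and IER3 had gene-wise coefficients of variation of 0.152 to 0.159, within the lowest 6.43% of tested genes. These edgeR estimates are pooled over the 3 groups and drawn toward the trend with count level. Within TR11B_KO, FOSL1 still ran from 126 to 172 CPM and IER3 from 380.5 to 533 CPM. DUSP1 and KLF6 followed at 0.179 and 0.187, and EGR1 at 0.216. FOSB (0.351) and FOS (0.446) were at the 82nd and 91.9th percentile, beside their few counts.

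The 10 genes are short, with a median transcript length of 2107 bases beside 3965 for tested genes, and rich in GC, with a median of 57.2% beside 49.2%. KLF6, the longest at 4590 bases and at 45.9% GC, is the exception, and its 2 calls were kept when the trends were removed (0.90 in OGT_KO against NC and 0.61 in OGT_KO against TR11B_KO).

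JUNB and IER2 are neighbours on chromosome 19. On GRCh38.p14 JUNB lies at chr19:12791486-12793315 and IER2 at chr19:13150411-13154911, 357 kilobases apart. Of 18 tested genes between them, 3 rose and 1 fell in OGT_KO (median log2 fold change 0.22), and 7 rose and 2 fell in TR11B_KO (median 0.48). Over all tested genes 8.26% rose and 10.1% fell in OGT_KO (median 0.03), and 13.2% rose and 14.3% fell in TR11B_KO (median -0.01). PRDX2, a peroxiredoxin gene next to JUNB, and RTBDN rose in both knockouts, PRDX2 by 1.52 and 1.14 and RTBDN by 2.65 and 1.33 on the log2 scale in OGT_KO and TR11B_KO (adjusted p of 0.000171, 0.000994, 0.000278 and 0.0122). These 2 genes were chosen after their values were seen. Whether the segment as a whole takes part in the rise of JUNB and IER2 was not tested.

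The other genes of the pathway were read from the same fit, upstream to downstream. Of 14 tested kinases that lead to immediate early genes, 2 fell in OGT_KO against NC and 2 fell in TR11B_KO against NC, with none higher. That is 14.3% in each, below the 18.3% and 27.6% of all tested genes. MAPK14, the p38 alpha kinase, was at 9.05, 9.61 and 7.74 CPM in OGT_KO, 9.05, 7.96 and 8.61 CPM in TR11B_KO and 16.5, 15.5 and 12.3 CPM in NC, below NC in all 6 knockout libraries. Its log2 fold change was -0.75 ± 0.21 in OGT_KO (adjusted p = 0.0224) and -0.79 ± 0.21 in TR11B_KO (adjusted p = 0.0122). Both kinase counts moved with single libraries, and so did the counts over all tested genes. In OGT_KO no kinase was called once replicate 1 or 2 of either NC or OGT_KO was left out, and 5 were called without TR11B_KO replicate 2. Over all tested genes, 1039 rose and 1264 fell in OGT_KO with all 9 libraries. These counts were 423 and 649 without NC replicate 1, and 2085 and 2451 without TR11B_KO replicate 2. In TR11B_KO 1 kinase was called without NC replicate 1 or 2, 5 without TR11B_KO replicate 1 and 4 without TR11B_KO replicate 2. Over all tested genes, 1666 rose and 1803 fell there, 864 and 1002 without NC replicate 1, and 2174 and 2212 without TR11B_KO replicate 2. The falls of MAPK14 in both knockouts were also lost without NC replicate 1 or 2.

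Of 11 tested genes for serum response factor, its ternary complex and coactivator partners and CREB factors, 1 fell in OGT_KO and 3 fell in TR11B_KO. That is 9.09% and 27.3%, against 18.3% and 27.6% of all tested genes. Their median log2 fold change was 0.49 in OGT_KO and -0.16 in TR11B_KO, beside 0.03 and -0.01 over all tested genes. In OGT_KO 4 of the 11 lay wholly above NC and 2 wholly below, where 24.2% and 25.6% of tested genes did. SRF itself was at 119, 116 and 122 CPM in OGT_KO, 125, 145 and 148 CPM in TR11B_KO and 202, 194 and 181 CPM in NC. Its log2 fold change was -0.69 ± 0.15 in OGT_KO (adjusted p = 0.00715, called under all 23 alternatives) and -0.47 ± 0.15 in TR11B_KO (adjusted p = 0.0344, called under 9 of 23). The genes of the acetyltransferase coactivators CREBBP and EP300 fell in TR11B_KO, at -1.25 ± 0.27 and -1.20 ± 0.29 (adjusted p = 0.00425 and 0.00797), the second not without NC replicate 2. Both were higher in OGT_KO than in TR11B_KO under every alternative, CREBBP by 1.74 ± 0.27 and EP300 by 1.80 ± 0.29 (adjusted p = 0.000361 and 0.000462). Without TR11B_KO replicate 2, 5 of these 11 genes rose and 1 fell in OGT_KO, and 3 rose and 1 fell without TR11B_KO replicate 1. The OGT_KO count also moved to 3 higher and 1 lower with DESeq2 and to 6 higher and 1 lower with only the 2 groups compared. Over all tested genes, 1039 rose and 1264 fell in OGT_KO in the edgeR fit to all 9 libraries. These counts were 2085 and 2451 without TR11B_KO replicate 2 and 1577 and 1764 without TR11B_KO replicate 1. With DESeq2 they were 1358 and 1606, and with only the 2 groups compared 2395 and 2700. In TR11B_KO 1 of the 11 was called without NC replicate 2 and 5 without TR11B_KO replicate 2. Over all tested genes, 856 rose and 957 fell in the first fit and 2174 and 2212 in the second.

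Among 29 other immediate early genes tested, 3 rose and 9 fell in OGT_KO (median log2 fold change -0.15), and 1 rose and 8 fell in TR11B_KO (median -0.12). Called were 41.4% of them in OGT_KO, against 18.3% of all tested genes, and 31.0% in TR11B_KO, against 27.6%, with medians over all tested genes of 0.03 and -0.01. The balance in OGT_KO moved with the setting: 3 rose and 5 fell with library totals, 5 rose and 7 fell with length and GC offsets, and 4 rose and 3 fell in the limma test with no filter. ATF3, a stress-induced AP-1 partner, was at 14.6, 13.3 and 14.8 CPM in OGT_KO, 5.83, 3.80 and 5.69 CPM in TR11B_KO and 5.73, 5.34 and 6.08 CPM in NC. Only the OGT_KO libraries stood apart, by 1.32 ± 0.22 against NC (adjusted p = 0.00125) and by 1.48 ± 0.22 against TR11B_KO (adjusted p = 0.000282). SOCS3, a feedback inhibitor of cytokine signalling, was at 32.3, 29.5 and 35.3 CPM in OGT_KO against 67.4, 72.2 and 69.4 CPM in NC (-1.11 ± 0.18, adjusted p = 0.000861). MYC, at 32.0, 38.4 and 33.9 CPM in OGT_KO, 41.2, 12.9 and 32.4 CPM in TR11B_KO and 105, 101 and 81.1 CPM in NC, fell in both knockouts, at -1.46 ± 0.31 in OGT_KO and -1.73 ± 0.31 in TR11B_KO (adjusted p = 0.00523 and 0.00147). RHOB, a small GTPase gene, fell in TR11B_KO (-1.17 ± 0.19, adjusted p = 0.000954). With 1 library left out, the calls numbered 4 (without OGT_KO replicate 1 or 3) to 16 (without TR11B_KO replicate 2) in OGT_KO, and 2 (without NC replicate 1) to 12 (without TR11B_KO replicate 2) in TR11B_KO.

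**Figure D5:**
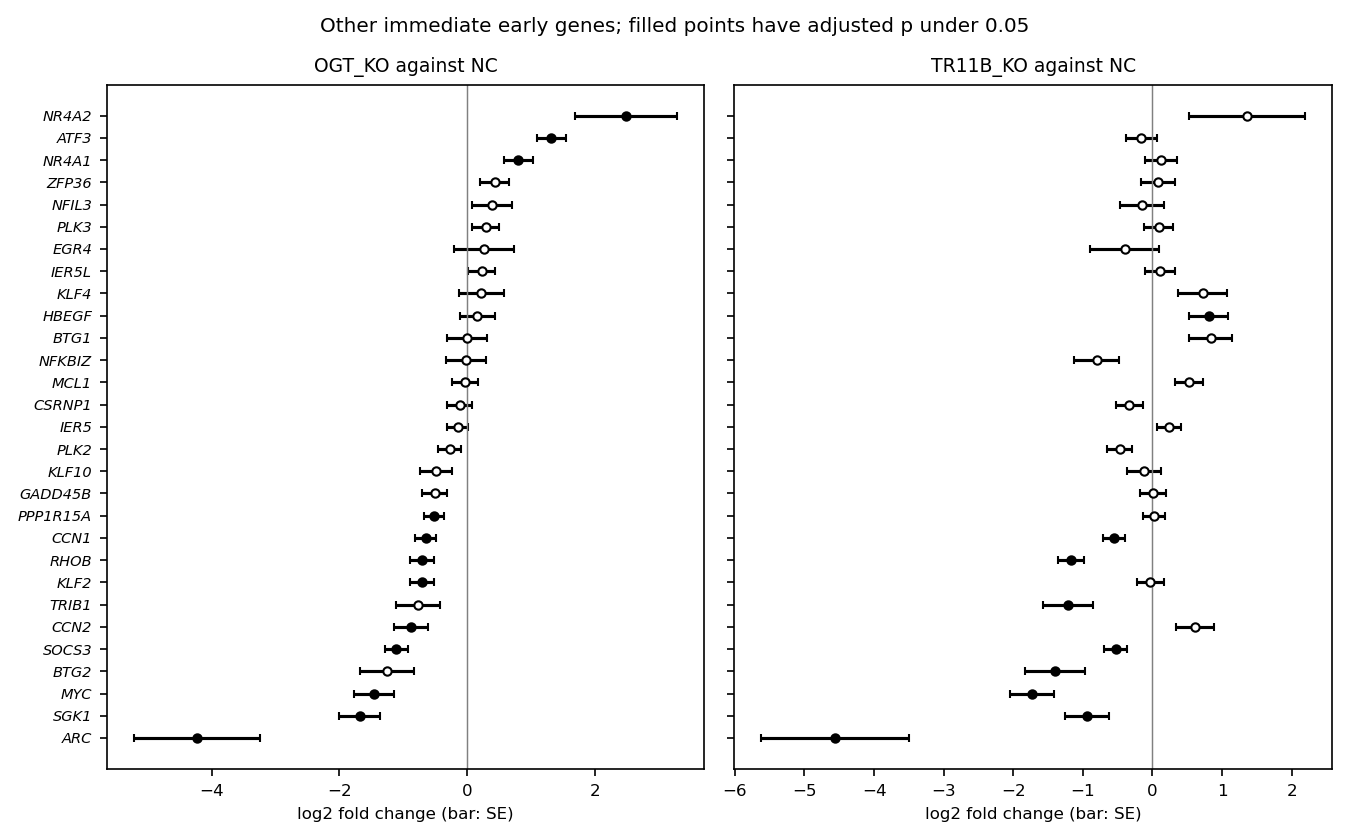
Log2 fold change of the tested immediate early genes outside the 10, in OGT_KO against NC and in TR11B_KO against NC, with bars for the SE and filled points where the adjusted p was under 0.05. More points lie below 0 than above it among the called genes, 9 against 3 in OGT_KO and 8 against 1 in TR11B_KO.

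Of 11 tested AP-1 family genes outside the 10, 3 rose and 1 fell in OGT_KO, and 4 rose in TR11B_KO. The share called was 36.4% in each, against 18.3% and 27.6% of all tested genes. JDP2, a Jun dimerization protein that represses AP-1, moved in opposite directions. It had 28, 18 and 29 counts in OGT_KO, 227, 108 and 239 counts in TR11B_KO and 124, 87 and 55 counts in NC. OGT_KO libraries lay below NC (-1.89 ± 0.36, adjusted p = 0.00276) and below TR11B_KO (-3.11 ± 0.36, adjusted p = 3.56e-05). In TR11B_KO it was higher than in NC by 1.23 ± 0.32 (adjusted p = 0.0127), a call that was lost without NC replicate 2, NC replicate 3 or TR11B_KO replicate 3. BATF3, a basic leucine zipper factor, rose in TR11B_KO by 1.15 ± 0.21 (adjusted p = 0.00161) under every alternative. The TR11B_KO count was 2 without NC replicate 2 or without NC replicate 3. Over all tested genes, 856 rose and 957 fell in the first of these fits and 1219 and 1496 in the second. With all 9 libraries these counts were 1666 and 1803.

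Feedback regulators of the MAP kinases are the class of DUSP1. Of 12 tested, 2 rose and 2 fell in each knockout against NC, or 33.3%, against 18.3% of all tested genes in OGT_KO and 27.6% in TR11B_KO. DUSP2, a nuclear MAP kinase phosphatase, was at 1.30, 1.42 and 1.86 CPM in OGT_KO, 11.0, 11.0 and 10.2 CPM in TR11B_KO and 10.8, 8.17 and 12.7 CPM in NC. Its log2 fold change in OGT_KO was -2.79 ± 0.25 against NC (adjusted p = 1.18e-05) and -2.81 ± 0.25 against TR11B_KO (adjusted p = 3.9e-06). SPRY4, a Sprouty inhibitor of receptor tyrosine kinase signalling, was at 10.2, 15.0 and 10.8 CPM in OGT_KO, 5.33, 4.80 and 5.23 CPM in TR11B_KO and 3.61, 2.94 and 2.73 CPM in NC. The 3 groups did not overlap, and SPRY4 rose by 1.95 ± 0.23 in OGT_KO (adjusted p = 0.000114) and by 0.73 ± 0.23 in TR11B_KO (adjusted p = 0.0315). DUSP5, an ERK-specific phosphatase, fell in TR11B_KO (-1.51 ± 0.28, adjusted p = 0.002). DUSP7 fell in both, at -1.33 ± 0.27 in OGT_KO and -1.07 ± 0.27 in TR11B_KO (adjusted p = 0.00473 and 0.0106). Neither higher call of TR11B_KO, SPRY4 and DUSP6, was kept when any single NC library or TR11B_KO replicate 3 was left out.

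Of 14 known AP-1 target genes tested, 1 rose and 2 fell in each knockout against NC. That is 21.4%, near the 18.3% of all tested genes in OGT_KO and below the 27.6% in TR11B_KO. PLAUR, the urokinase receptor gene, was at 9.28, 6.69 and 7.57 CPM in OGT_KO, 39.1, 43.2 and 43.1 CPM in TR11B_KO and 36.1, 36.3 and 38.1 CPM in NC. It fell in OGT_KO (-2.23 ± 0.19, adjusted p = 7.45e-06). PLAU, the gene of its ligand urokinase, was at 466, 408 and 441 CPM in OGT_KO, 274, 238 and 271 CPM in TR11B_KO and 218, 219 and 225 CPM in NC, and rose in OGT_KO by 0.99 ± 0.15 (adjusted p = 0.00075). IL6, an inflammatory cytokine gene, fell in TR11B_KO (-1.40 ± 0.26, adjusted p = 0.00196). The target list had 5 calls in OGT_KO without TR11B_KO replicate 1 or 2. In TR11B_KO it had 5 without TR11B_KO replicate 1 and 6 without TR11B_KO replicate 2. Calls over all tested genes also rose in these fits. In OGT_KO 1577 rose and 1764 fell without TR11B_KO replicate 1, and 2085 and 2451 without TR11B_KO replicate 2. In TR11B_KO these counts were 2292 and 2171, and 2174 and 2212.

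Proteins that bind AU-rich elements decide how long such transcripts last. Of 8 tested genes, ZFP36L1, which promotes decay, was at 44.5, 53.8 and 42.2 CPM in OGT_KO, 26.9, 21.0 and 25.7 CPM in TR11B_KO and 17.9, 24.7 and 18.5 CPM in NC. It rose in OGT_KO by 1.20 ± 0.20 against NC (adjusted p = 0.00112). No other was called in OGT_KO, though 2 more fell without TR11B_KO replicate 1 or 2. Over all tested genes, 1577 rose and 1764 fell in the first of these fits and 2085 and 2451 in the second. With all 9 libraries these counts were 1039 and 1264. In TR11B_KO KHSRP and ELAVL1, a decay-promoting and a stabilizing protein, fell, at -0.72 ± 0.21 and -0.68 ± 0.20 (adjusted p = 0.0195 for each). Neither fall was kept without NC replicate 1 or NC replicate 2. The share of the 8 called was 12.5% in OGT_KO and 25.0% in TR11B_KO, below the 18.3% and 27.6% of all tested genes.

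Heat shock genes, which encode chaperones and respond to unfolded protein, were read beside these results. Of 11 tested, 2 rose and 2 fell in OGT_KO (median log2 fold change -0.25) and 1 rose and 6 fell in TR11B_KO (median -0.55), with medians of 0.03 and -0.01 over all tested genes. The share called was 36.4% in OGT_KO, against 18.3% of all tested genes, and 63.6% in TR11B_KO, against 27.6%. DNAJB1 was at 76.2, 81.8 and 79.8 CPM in OGT_KO, 78.2, 55.9 and 66.1 CPM in TR11B_KO and 181, 229 and 209.8 CPM in NC. It fell in both knockouts under every alternative, with log2 fold changes of -1.38 ± 0.17 in OGT_KO and -1.63 ± 0.18 in TR11B_KO (adjusted p = 0.000172 and 7.5e-05). HSPE1, a mitochondrial chaperonin, rose by 1.30 ± 0.26 in OGT_KO and by 1.94 ± 0.27 in TR11B_KO (adjusted p = 0.00432 and 0.000335). HSPA8 ranged from 248 to 825 CPM within TR11B_KO, lowest in replicate 2. The OGT_KO count was 2 when any single NC or OGT_KO library was left out, and the TR11B_KO count was 4 without NC replicate 1 or 2. Calls over all tested genes fell in these fits too. In OGT_KO 423 to 578 genes rose and 649 to 870 fell, beside 1039 and 1264 with all 9 libraries. In TR11B_KO 864 rose and 1002 fell without NC replicate 1, and 856 and 957 without NC replicate 2. With all 9 libraries the TR11B_KO counts were 1666 and 1803. The part of a heat shock response in the values of JUNB, JUN and IER2 was not tested. In bulk libraries, fewer cells expressing a gene and less RNA of it per cell cannot be told apart.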

How the data were processed

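Per the labels' protocols, total RNA of A549 cells was extracted with TRIzol and made into libraries with a VAHTS Universal kit. The sources used here do not state strandedness, so reads of overlapping antisense genes cannot be told apart. The submitters' processing notes list GRCh38 as the build and DESeq2, HTSeq, HISAT, fastp and R 3.2.0 among the tools, without their settings. The deposited table of read counts is not normalized, and the second deposited table holds FPKM values, scaled by the authors to gene length and library total. Dividing counts by FPKM recovered the gene length they used, whole to 0.01 base in 17919 of 17923 genes with a count.

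From these, counts were tested with the edgeR 4.0.16 quasi-likelihood F test in R 4.3.3 (filterByExpr, TMM, robust), with group as the only term and all 9 libraries together. The Benjamini-Hochberg adjustment ran over all 12574 genes tested, and genes were called at an adjusted p under 0.05. Each SE was derived from the log2 fold change and its F value. CPM values are scaled by TMM. The fits were tested on simulated data. Alternatives were DESeq2 1.42.0, its size factors, library totals alone, other filters, only the 2 groups compared, a replicate block, limma 3.58.1 on log2(FPKM + 1) or log2(FPKM + 0.1), per-library length and GC offsets, and each library left out. GC content was known for 86.5% of genes. Promoters and positions came from RefSeq (GRCh38.p14).

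The labels do not say what a replicate number shares between groups, so the numbers were not used as pairs. All 10 members are named in each comparison; from each other list, up to 4 tested genes with the smallest adjusted p in a comparison are named. The members, lists and tests were chosen with earlier results of these data known. Some genes that this rule would name are not reported here.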

Additional observations from a re-analysis of the deposited data

How the results depend on the processing

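Under the 23 alternatives, the OGT_KO calls of JUNB, JUN and IER2, the TR11B_KO call of IER2 and the higher KLF6 in OGT_KO than in TR11B_KO kept direction and side of the threshold, and the other calls did not, as given above. Members called numbered 3 to 5 in OGT_KO against NC, 2 to 3 in TR11B_KO against NC and 2 to 5 in OGT_KO against TR11B_KO with 1 library left out. Called genes in all then numbered 1072 to 4536, 1813 to 4463 and 2401 to 5307. In TR11B_KO against NC, 1 member was called with the GC offset and 1 with the length offset and replicate block, and 1 was called in OGT_KO against TR11B_KO with limma and no filter. Fits of only the 2 groups compared called 5095 genes in OGT_KO and 2251 in TR11B_KO against NC.

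The replicate block changed the call of FOS (-1.92) and FOSL1 (-0.48 in the direct comparison), and called 4, 2 and 2 members and 1609, 2612 and 3403 genes in the 3 comparisons. With the length offset and the block, 1521 genes were called in OGT_KO and 1965 in TR11B_KO against NC. Correlations of same-numbered libraries, as deviations from group means, lay between -0.20 and 0.07. Those of differently numbered libraries lay between -0.10 and 0.22. With 3 libraries per group these values cannot show whether same-numbered libraries share a preparation.

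Library totals in place of TMM moved the median of all genes to 0.147, -0.152 and 0.314 (main 0.032, -0.01 and 0.056) and the share of calls that were higher to 60.6%, 36.8% and 70.9% (main 45.1%, 48% and 50.4%). With limma on log2(FPKM + 1) that share was 65.2%, 37.8% and 72.6%.

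Signs turned for differences that the fit to all 9 libraries did not call, FOSL1 in the direct comparison (0.02 with length and GC offsets) apart. In OGT_KO against NC they were IER3 (0.08 with library totals and with the 3 limma settings, 0.10 with the GC offset, -0.10 to 0.04 with a library left out), EGR1 (0.03 with the GC offset, 0.10 with both) and FOS (-0.90 to 0.05 with a library left out, the last without NC replicate 2). In TR11B_KO against NC they were JUN (-0.06 with library totals, -0.08, -0.09 and -0.08 with limma), FOSL1 (-0.11, -0.03, -0.24 and -0.12 with the length, GC, both and blocked length offsets), IER3 (-0.22 with either length offset, -0.27 with both length and GC, called at an adjusted p of 0.0357) and KLF6. KLF6 was at 0.04 with DESeq2 and its size factors, 0.03 with the CPM filter, 0.12, 0.18, 0.30 and 0.12 with the offsets, and up to 0.08 with a library left out. There FOSB ran from -0.85 to 0.07 with a library left out, the last without TR11B_KO replicate 1, and EGR1 from -0.02 to 0.36, the first without TR11B_KO replicate 3. In OGT_KO against TR11B_KO they were JUNB (0.21 with library totals, 0.22 with limma, 0.23 and 0.24 with length offsets, 0.43 with GC and 0.56 with both, the last 2 called, up to 0.02 with a library left out), IER3 (0.01 with library totals and limma, 0.14 and 0.15 with length offsets, 0.27 with length and GC, called at 0.0324), IER2 (0.10 with both offsets) and DUSP1 (-0.14 without TR11B_KO replicate 2). The cause was not tested. Counts of the gene lists without TR11B_KO replicate 2 were added after seeing the data. FOS, with 2 to 34 counts per library, is limited by counting.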
